A study of Mus musculus with 8 samples.

Results

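The 10 genes described here encode the core of extracellular TGF-beta signalling: the ligands Tgfb1, Tgfb2 and Tgfb3, the receptors Tgfbr1, Tgfbr2 and Tgfbr3, and the latent TGF-beta binding proteins Ltbp1, Ltbp2, Ltbp3 and Ltbp4. They were chosen by gene symbol, each symbol matched 1 row, and they are 10 of the 54532 genes in the deposited tables. All 10 passed the filter on low counts that left 14723 genes for testing. The cells were mouse cardiac fibroblasts of the C57BL/6 strain at passage 2. They received the plasmid pAAV.CMV.SV40.THBS4-HA.SV40(polyA), which carries the mouse Thbs4 sequence with an HA tag, in the TSP-4 plasmid group, or the plasmid pAAV-CA without an insert in the empty plasmid group. Thbs4 encodes thrombospondin-4 (TSP-4), a secreted matricellular protein. After transfection both groups spent 12 h in standard medium and 24 h without serum, and each group gave 4 libraries of poly(A) RNA, which carry the letters A to D. The constructs have different names, so a difference between groups is one between plasmids, and the labels do not say whether libraries came from separate animals or cultures. The p-values therefore measure the spread between these libraries, which may be technical.

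TGF-beta is secreted in a latent form. Furin cleaves the precursor, the propeptide stays wrapped around the mature dimer, and a latent binding protein is disulfide-bonded to the propeptide and anchors the complex in the matrix. Integrins, proteases and thrombospondin-1 can release the active dimer, which binds TGFBR2, recruits TGFBR1 and activates SMAD2 and SMAD3. In the injured heart this pathway drives fibroblasts to become myofibroblasts and to deposit collagen. The series asks about fibroblast TGF-beta signalling in obesity-associated diabetes, and the libraries here address what TSP-4 overexpression does to fibroblast transcripts.

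Total counts per library ranged from 17123735 to 22530947, and both A libraries were the deepest of their groups, with 22530947 counts for the TSP-4 plasmid and 21292609 for the empty plasmid. Thbs4 held 25754 to 38063 counts in TSP-4 plasmid libraries and 2 to 11 counts in empty plasmid libraries. In CPM, counts scaled to library size with TMM factors, it stood at 1783 ± 288 CPM in TSP-4 plasmid libraries, against 0.327 ± 0.254 CPM in empty plasmid libraries (SD, n = 4 per group). Of 14 fibroblast markers, 14 were tested, and their summed level was 20350 to 28856 CPM in TSP-4 plasmid libraries and 19870 to 28105 CPM in empty plasmid libraries. Of 10 cardiomyocyte markers 1 passed the filter, and of 8 T, B and NK cell markers none did, with Cd3d and Klrb1c at 0 counts in every library. Macrophage markers were present: 16 of 16 were tested, none was at 0, and their sum was 342 to 1956 CPM in TSP-4 plasmid libraries and 376 to 1574 CPM in empty plasmid libraries. Endothelial markers (9 of 10 tested) summed to 128 to 172 CPM in TSP-4 plasmid libraries and 131 to 181 CPM in empty plasmid libraries. Schwann cell markers (2 of 6 tested, Gfra3 at 0) summed to 4.73 to 7.59 CPM in TSP-4 plasmid libraries and 3.62 to 7.23 CPM in empty plasmid libraries. These are bulk libraries, in which more cells of a type and more RNA per cell cannot be told apart.

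Of the 10 members 0 passed the test between the plasmids, which 0.00679% of all tested genes passed (1 gene, Thbs4). Between the letters that both groups share 9 of the 10 passed, beside 28.1% of all tested genes and 33.4% of those averaging 10 CPM or more. By FPKM, Ltbp3, Ltbp2 and Ltbp1 were the most abundant members on average, and Tgfb3 was the leading ligand in every library. Within each group Tgfb1 was lowest in library A and Tgfb2 highest there. Tgfb2 did not pass between letters in the main fit, and its call depended on the method. Levels are compared between genes as the authors' FPKM, which divides by gene length. Differences within a gene are given as log2 fold changes of counts from edgeR's quasi-likelihood test, TSP-4 plasmid over empty plasmid, with Benjamini-Hochberg adjustment over all 14723 genes.

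**Figure D1:**
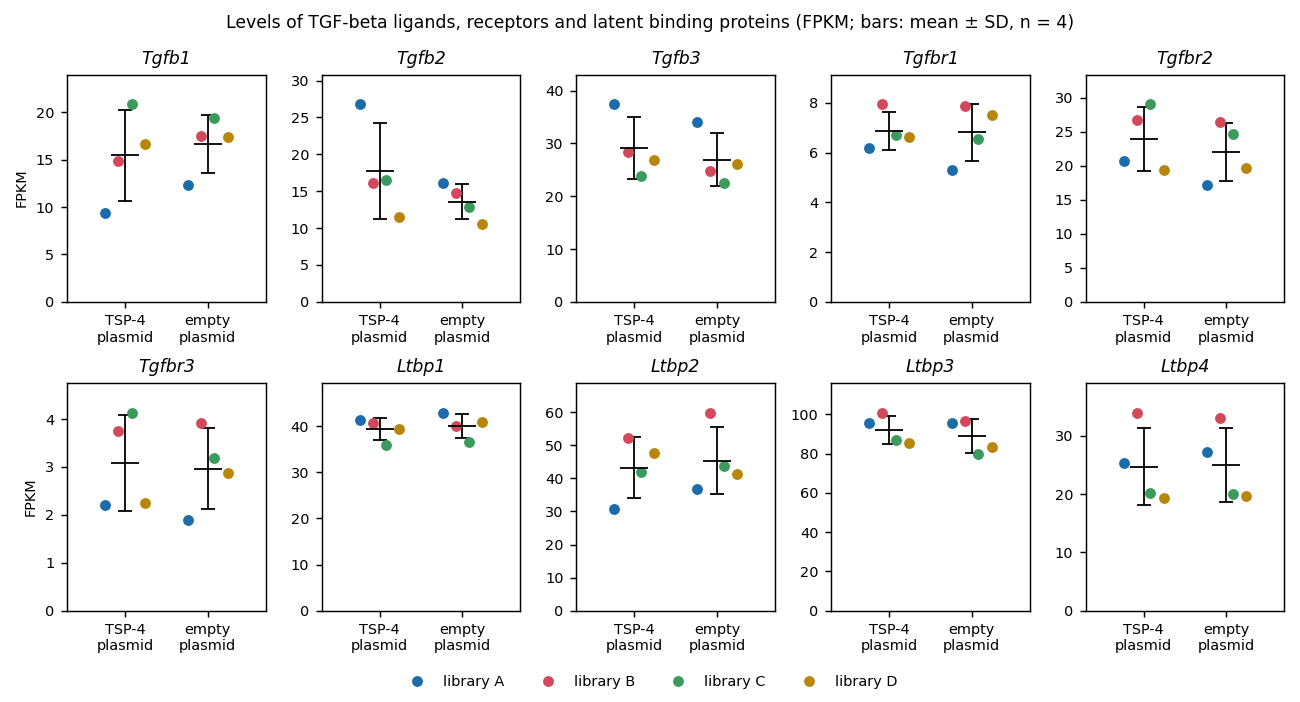
FPKM of each of the 10 members in the 4 TSP-4 plasmid libraries (left) and the 4 empty plasmid libraries (right), coloured by library letter. Bars give the mean ± SD (n = 4 each), the y axes start at 0 and differ between genes, and the groups overlap for every member.

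Promoter sequence from RefSeq (GRCm38.p6) was found for 8 of the 10 members, all but Tgfb3 and Tgfbr3. The 250 bases before the start site are shown for the ligands that differed most in pattern across libraries, Tgfb1 and Tgfb2, and for Ltbp1, the member that differed least between letters. The windows are chr7:25686752-25687001 on the plus strand for Tgfb1, chr1:186705990-186706239 on the minus strand for Tgfb2 and chr17:75005279-75005528 on the plus strand for Ltbp1. For Ltbp1 the first of 2 listed starts is given, and counts per gene do not separate the starts. The Tgfb1 and Tgfb2 windows adjoin the deposited gene coordinates. The Ltbp1 window ends at base 75005528, upstream of the deposited gene start at base 75005568. Capitals mark matches, on either strand, to TATAAA (the TATA box), TGACGTCA (the cAMP response element), TGANTCA (AP-1), GGGCGG (the GC box), CACGTG (the E box) and GTCTAGAC (the SMAD palindrome).
Tgfb1: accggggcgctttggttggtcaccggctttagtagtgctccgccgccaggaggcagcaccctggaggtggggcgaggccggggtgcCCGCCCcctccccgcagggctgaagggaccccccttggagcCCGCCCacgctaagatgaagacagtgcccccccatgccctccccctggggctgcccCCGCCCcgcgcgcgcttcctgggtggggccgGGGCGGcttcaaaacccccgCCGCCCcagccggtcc
Tgfb2: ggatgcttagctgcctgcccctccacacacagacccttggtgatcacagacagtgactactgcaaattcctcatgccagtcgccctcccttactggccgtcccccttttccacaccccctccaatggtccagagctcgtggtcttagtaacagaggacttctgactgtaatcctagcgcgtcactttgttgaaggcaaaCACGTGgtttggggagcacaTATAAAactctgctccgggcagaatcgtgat
Ltbp1: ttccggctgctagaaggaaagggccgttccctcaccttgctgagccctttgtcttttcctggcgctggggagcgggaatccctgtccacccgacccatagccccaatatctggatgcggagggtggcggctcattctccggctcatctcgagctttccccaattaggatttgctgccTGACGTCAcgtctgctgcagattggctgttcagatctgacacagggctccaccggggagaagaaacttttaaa

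The Tgfb1 window held 5 GC boxes and 75.2% G and C, and no TATA box match. The Tgfb2 window held a TATA box beginning 31 bases before the start and an E box beginning 51 bases before it, no GC box match, and 53.6% G and C. The Ltbp1 window held 1 cAMP response element match and 56.8% G and C. Matches in the 3 windows did not overlap each other. Among 32851 promoter windows of the same length, 12.4% held a TATA box, 1.55% a cAMP response element, 6.75% an AP-1 site, 32.7% a GC box, 6.02% an E box and 0.167% the SMAD palindrome. A match is a description of the letters and does not show binding.

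Among the ligands, Tgfb3, the isoform best known from palate and lung development, was the highest per length. By CPM, without the division by length, Tgfb2 led in TSP-4 plasmid library A (154.9 against 126.4 CPM for Tgfb3). Tgfb1 led by CPM in TSP-4 plasmid library C and in empty plasmid libraries B and C. Tgfb3 (ENSMUSG00000021253) is on the minus strand of chromosome 12, bases 86056745 to 86079041 of build GRCm38, which all positions of members below use. It stood at 37.4, 28.5, 23.8 and 26.9 FPKM in TSP-4 plasmid libraries A to D, against 34.1, 24.9, 22.6 and 26.2 FPKM in empty plasmid libraries A to D. Library A was the highest in both groups, and the groups overlapped throughout. The TSP-4 plasmid library was higher in 4 of 4 letters, as it was for Tgfb2, while 16.1% of all tested genes had the same sign in all 4 letters. Fitted over all libraries, the difference was 0.11 on the log2 scale (SE 0.16, 95% interval -0.26 to 0.48, adjusted p 0.999968 in edgeR's quasi-likelihood test). Tgfb3 shares 5149 bp with the gene Ttll5 on the opposite strand, which held 184 to 311 counts per library beside 1367 to 2802 for Tgfb3. The strand setting of the counting is not given in the sources used here, so reads in the shared stretch cannot be assigned to a strand.

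Tgfb1 encodes the isoform most studied in fibrosis and immune control. It (ENSMUSG00000002603) is on the plus strand of chromosome 7, bases 25687002 to 25705077. It stood at 9.38, 14.8, 20.8 and 16.7 FPKM in TSP-4 plasmid libraries A to D, against 12.3, 17.5, 19.4 and 17.4 FPKM in empty plasmid libraries A to D. Library A was the lowest and library C the highest in both groups. Its fold change was -0.12 (SE 0.24, interval -0.68 to 0.45), and the TSP-4 plasmid library was higher in 1 of 4 letters, letter C.

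Tgfb2, the isoform needed for heart valve and septum formation in mouse embryos, had the widest gap between plasmids of any member. It (ENSMUSG00000039239) is on the minus strand of chromosome 1, bases 186622792 to 186705989. It stood at 26.8, 16.1, 16.5 and 11.5 FPKM in TSP-4 plasmid libraries A to D, against 16.1, 14.8, 12.9 and 10.6 FPKM in empty plasmid libraries A to D. Library A was highest and library D lowest within each group, and the 7 libraries other than TSP-4 plasmid A lay at or below 16.5 FPKM. On the log2 scale the fold change was 0.38 (SE 0.25, interval -0.20 to 0.96), with an unadjusted p of 0.170. Within letters the log2 CPM difference, TSP-4 minus empty plasmid, was 0.73 for A, 0.11 for B, 0.34 for C and 0.13 for D. Without TSP-4 plasmid library A the fold change was 0.11, and without TSP-4 plasmid library D it was 0.54.

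As shares of the summed ligand FPKM, Tgfb3 took 46.7 ± 5.28% in TSP-4 plasmid libraries, against 46.9 ± 5.94% in empty plasmid libraries (SD, n = 4 per group). Tgfb1 took 25.5 ± 9.29% in TSP-4 plasmid libraries and 29.5 ± 6.79% in empty plasmid libraries. Tgfb2 took 27.8 ± 6.40% in TSP-4 plasmid libraries and 23.7 ± 2.98% in empty plasmid libraries. The order of Tgfb1 and Tgfb2 depended on the library. The ratio of Tgfb1 to Tgfb2 FPKM was 0.350, 0.922, 1.26 and 1.45 in TSP-4 plasmid libraries A to D, against 0.766, 1.19, 1.50 and 1.65 in empty plasmid libraries A to D. Tgfb2 exceeded Tgfb1 in TSP-4 plasmid libraries A and B and in empty plasmid library A. Summed over the ligands, the level was 62.3 ± 7.95 FPKM in TSP-4 plasmid libraries and 57.2 ± 3.76 FPKM in empty plasmid libraries.

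**Figure D2:**
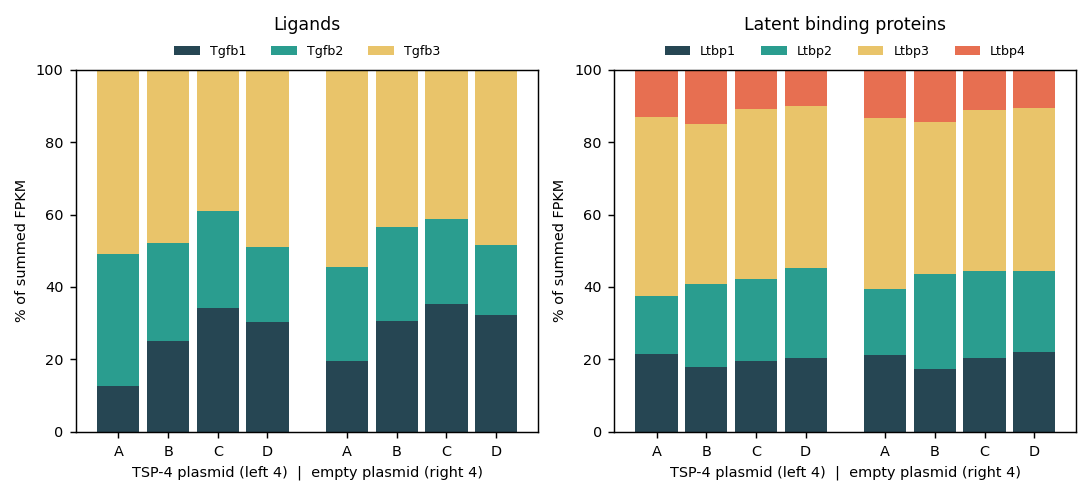
Share of each ligand in the summed ligand FPKM (left panel) and of each latent binding protein in their summed FPKM (right panel), in percent, for TSP-4 plasmid libraries A to D (left bars) and empty plasmid libraries A to D (right bars). Tgfb3 is the largest ligand segment and Ltbp3 the largest binding protein segment in all 8 bars, and the Tgfb1 segment is smallest in library A of each group.

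Among the receptors, Tgfbr2, the type II kinase that binds the ligand first, was the most abundant. Tgfbr2 (ENSMUSG00000032440) is on the minus strand of chromosome 9, bases 116084293 to 116175360. It stood at 20.7, 26.7, 29.1 and 19.4 FPKM in TSP-4 plasmid libraries A to D, against 17.2, 26.4, 24.7 and 19.7 FPKM in empty plasmid libraries A to D. Libraries B and C were higher than A and D in both groups. For Tgfbr2 the fold change was 0.12 (SE 0.18, interval -0.29 to 0.53).

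Tgfbr1, the type I kinase that phosphorylates SMAD2 and SMAD3, was lower per length than Tgfbr2 in every library. Tgfbr1 (ENSMUSG00000007613) is on the plus strand of chromosome 4, bases 47353222 to 47414931. It stood at 6.17, 7.95, 6.71 and 6.62 FPKM in TSP-4 plasmid libraries A to D, against 5.29, 7.86, 6.56 and 7.53 FPKM in empty plasmid libraries A to D. Library A was the lowest and library B the highest in both groups. Its fold change was 0.01 (SE 0.13, interval -0.29 to 0.30). The ratio of Tgfbr2 to Tgfbr1 FPKM was 3.50 ± 0.596 in TSP-4 plasmid libraries, against 3.25 ± 0.472 in empty plasmid libraries (SD, n = 4 per group).

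Tgfbr3 encodes betaglycan, a co-receptor without a kinase that presents ligand, TGF-beta2 above all, to TGFBR2. Tgfbr3 (ENSMUSG00000029287) is on the minus strand of chromosome 5, bases 107106570 to 107289629 and was the lowest member in all 8 libraries. It stood at 2.21, 3.75, 4.13 and 2.26 FPKM in TSP-4 plasmid libraries A to D, against 1.88, 3.92, 3.18 and 2.87 FPKM in empty plasmid libraries A to D. It held 262 to 458 counts per library. Libraries B and C were again above A and D in both groups. For Tgfbr3 the fold change was 0.05 (SE 0.28, interval -0.60 to 0.70), the widest interval of the 10.

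Among the latent binding proteins, Ltbp3, which is needed for secretion of latent TGF-beta in bone and teeth of mice, was the highest member in every library. Ltbp3 (ENSMUSG00000024940) is on the plus strand of chromosome 19, bases 5740904 to 5758532. It stood at 95.5, 100.7, 86.8 and 85.5 FPKM in TSP-4 plasmid libraries A to D, against 95.7, 96.6, 80.0 and 83.2 FPKM in empty plasmid libraries A to D. The groups overlapped, and A and B were above C and D in each. Its mean FPKM ranked 532 among the 14723 tested genes, while that of Tgfbr3 ranked 8871. For Ltbp3 the fold change was 0.05 (SE 0.08, interval -0.14 to 0.23).

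Ltbp1, the founding member that covalently holds the latent complex in fibrillin and fibronectin matrix, varied least. Ltbp1 (ENSMUSG00000001870) is on the plus strand of chromosome 17, bases 75005568 to 75392512. It stood at 41.4, 40.7, 36.0 and 39.4 FPKM in TSP-4 plasmid libraries A to D, against 42.9, 40.0, 36.6 and 40.9 FPKM in empty plasmid libraries A to D. Library C was the lowest in both groups. The fold change was -0.03 (SE 0.07, interval -0.18 to 0.12), the narrowest interval of the 10.

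Ltbp2 differs from its relatives in that its protein does not bind latent TGF-beta but associates with fibrillin microfibrils. Ltbp2 (ENSMUSG00000002020) is on the minus strand of chromosome 12, bases 84783212 to 84876532. It stood at 30.8, 52.2, 42.0 and 47.7 FPKM in TSP-4 plasmid libraries A to D, against 36.7, 59.8, 43.8 and 41.4 FPKM in empty plasmid libraries A to D. Library B was the highest and library A the lowest in both groups. The fold change was -0.08 (SE 0.20, interval -0.53 to 0.38).

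Ltbp4, whose protein takes part in elastic fibre assembly and binds latent TGF-beta1, had the smallest adjusted p of the members between letters. Ltbp4 (ENSMUSG00000040488) is on the minus strand of chromosome 7, bases 27305136 to 27337692. It stood at 25.4, 33.9, 20.2 and 19.4 FPKM in TSP-4 plasmid libraries A to D, against 27.2, 33.0, 20.0 and 19.7 FPKM in empty plasmid libraries A to D. The order B, A, C, D was the same in both groups. Within letters, Ltbp4 of the TSP-4 plasmid library differed from that of the empty plasmid library by at most 0.10 (log2 CPM). The fold change was -0.02 (SE 0.23, interval -0.55 to 0.52).

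The order of mean levels over the 8 libraries was Ltbp3 (90.5 FPKM), Ltbp2 (44.3), Ltbp1 (39.7), Tgfb3 (28.1), Ltbp4 (24.8), Tgfbr2 (23.0), Tgfb1 (16.0), Tgfb2 (15.7), Tgfbr1 (6.84) and Tgfbr3 (3.03). The ranges over libraries did not overlap between Ltbp3 and Ltbp2, nor between Tgfbr1 and Tgfbr3, nor between Tgfbr1 and Tgfb2. All other neighbours in this order overlapped, and Ltbp2 lay below Ltbp1 in library A of both groups. The binding proteins summed to 199 ± 19.1 FPKM in TSP-4 plasmid libraries, against 199 ± 22.2 FPKM in empty plasmid libraries. That was 3.24 ± 0.527 times the ligand sum in TSP-4 plasmid libraries and 3.49 ± 0.356 times in empty plasmid libraries (SD, n = 4 per group). The sum includes Ltbp2, whose protein does not bind latent TGF-beta. Ltbp2 took 21.6 ± 3.88% of it in TSP-4 plasmid libraries and 22.7 ± 3.41% in empty plasmid libraries.

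Across the 10 members, 0 stood higher and 0 stood lower in TSP-4 plasmid libraries at an adjusted p of 0.05, beside 0.00679% of all tested genes higher (1 gene, Thbs4) and 0% lower. At an unadjusted p under 0.05 edgeR listed 0 members, against 1.60% of all genes, and DESeq2 and limma voom also called 0 members and listed 0. All of these fits leave out the letter, so differences between letters count as spread within a group and widen the intervals. The groups overlapped in CPM for all 10 members, and did not overlap for 1.51% of all genes. The log2 fold change was above 0 for 6 members, with a median of 0.03, beside a median of -0.00 over all genes. Each member's 95% interval lay within a 2-fold change in either direction. This held for 88.5% of all genes and for 97.5% of those averaging 10 CPM or more, a level that every member exceeded.

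**Figure D3:**
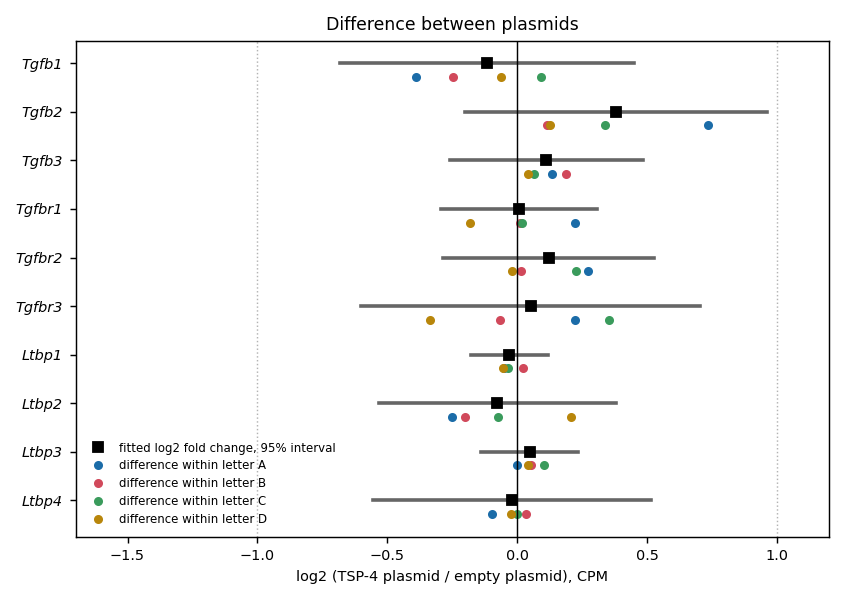
Fitted log2 fold change of each member, TSP-4 plasmid over empty plasmid (black squares), with its 95% interval (grey lines), and the difference in log2 CPM within each letter (coloured points). Dotted lines mark a 2-fold change. All 10 intervals span 0 and stay inside the dotted lines, and the Tgfb2 point of letter A lies farthest to the right, at 0.73.

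Same-letter libraries deviated together, so the comparison was also made with the letter as a replicate block. With the block edgeR again called 0 members, beside 0.0136% of all genes (2 genes). At an unadjusted p under 0.05 it listed 3 members, Tgfb2, Tgfb3 and Tgfbr2, beside 8.12% of all genes. Their fold changes with the block were 0.34 (SE 0.12, unadjusted p 0.0390, adjusted p 0.578) for Tgfb2, 0.11 (SE 0.04, 0.0207 and 0.534) for Tgfb3 and 0.12 (SE 0.05, 0.0307 and 0.560) for Tgfbr2 in edgeR's quasi-likelihood test. Tgfbr2 was higher in 3 of 4 letters with the TSP-4 plasmid.

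Letters were then compared with the plasmid held in the model, by edgeR's quasi-likelihood F test over the same 14723 genes. Of the 10 members, 9 differed between letters at an adjusted p of 0.05. The share over all genes was 28.1%, and 33.4% among genes averaging 10 CPM or more. The median span between the highest and the lowest letter mean was 0.68 on the log2 scale for the members and 0.28 for all genes. A span of at least 0.5 was found for 7 members, for 24.4% of all genes, and for 13.5% of genes averaging 10 CPM or more. Only 4 letters with 2 libraries each stand behind these values, and the labels do not say what a letter marks.

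**Figure D4:**
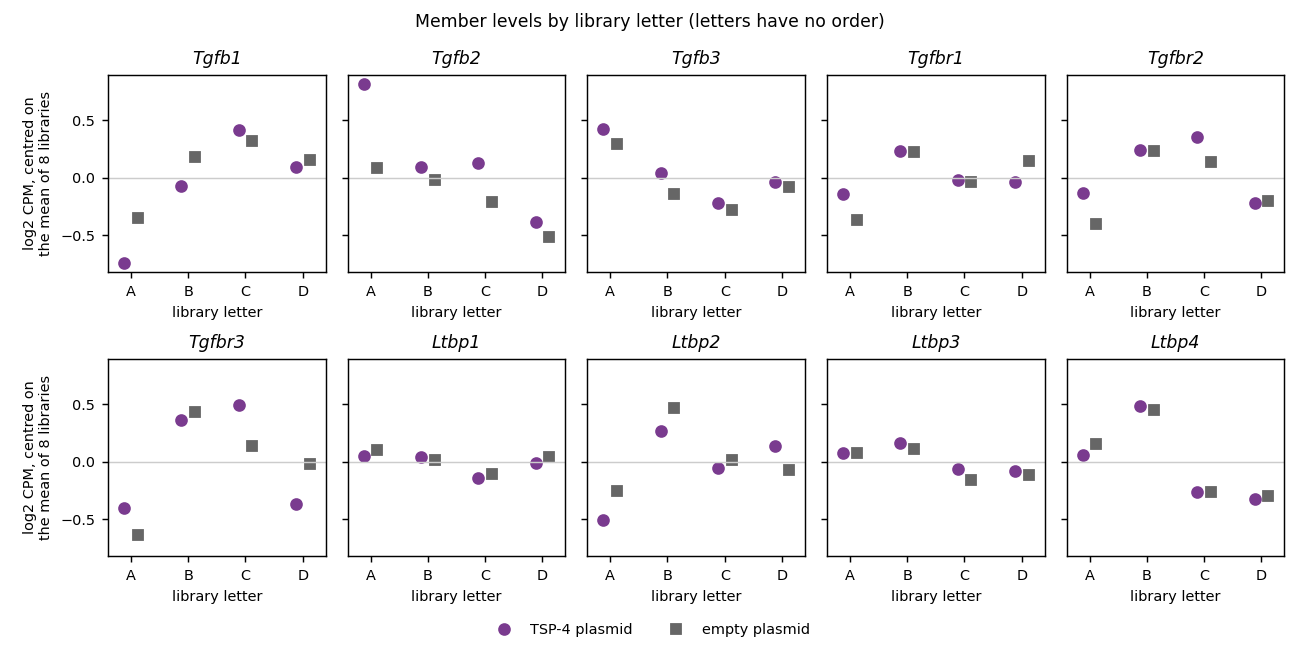
Level of each member by library letter, as log2 CPM centred on the member's mean over the 8 libraries, for the TSP-4 plasmid (circles) and the empty plasmid (squares). The paired points of a letter lie close together compared with the spread between letters for Ltbp4 and Tgfb3, and Tgfb1 runs low in A where Tgfb3 runs high. Tgfb2 stands at 0.82 in A with the TSP-4 plasmid and at 0.08 in A with the empty plasmid.

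Among the ligands, the letter span was 0.91 for Tgfb1 (lowest in A, highest in C, adjusted p 0.000762) and 0.61 for Tgfb3 (lowest in C, highest in A, adjusted p 1.75e-05, edgeR's quasi-likelihood F test). For Tgfb2 it was 0.90 (lowest in D, highest in A) with an adjusted p of 0.0574, and its A libraries differed by 0.73 from each other. The Tgfb2 call depended on the method. Tgfb2 passed between letters with DESeq2 (adjusted p 0.00125), with limma voom (0.00133) and with edgeR without the expression filter (5.22e-06). With RLE factors in edgeR it did not pass (0.0552). Without TSP-4 plasmid library A the adjusted p of Tgfb2 was 7.84e-06, without empty plasmid library A it was 1.52e-08, and over all alternatives it ranged up to 0.152. Tgfb1 and Tgfb2 were the least alike of the 45 member pairs, with a root mean square difference of centred log2 CPM of 0.68 over the 8 libraries. The start-site windows of these ligands are printed above because their patterns differed, and a relation between motifs and levels was not tested. GC boxes also stood in windows of Tgfbr1, Ltbp2 and Ltbp4.

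Among the receptors, Tgfbr3 had a span of 0.90 (adjusted p 0.00228), Tgfbr2 of 0.52 (0.000108) and Tgfbr1 of 0.48 (0.00500), and each was lowest in letter A. Tgfbr2 and Tgfbr3 were the second closest pair of members, at 0.18. Among the binding proteins, Ltbp4 had a span of 0.78 (adjusted p 3.91e-07), Ltbp2 of 0.75 (0.00795), Ltbp3 of 0.25 (0.00285) and Ltbp1 of 0.20 (0.0285). Ltbp1 and Ltbp3 formed the closest pair, at 0.09. The Ltbp1 call was lost with DESeq2 (adjusted p 0.0517) and without any single library of letter C or D, where the adjusted p was 0.203 without TSP-4 plasmid C, 0.0592 without TSP-4 plasmid D, 0.228 without empty plasmid C and 0.0561 without empty plasmid D. It was also lost without both C libraries (0.617). The Tgfbr1 call was lost without both B libraries (0.0509).

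Macrophage and fibroblast markers moved with the letters too. The 16 macrophage markers summed to 342, 859, 1956 and 856 CPM in TSP-4 plasmid libraries A to D, against 376, 1157, 1574 and 711 CPM in empty plasmid libraries A to D. They were lowest in A and highest in C in both groups, as Tgfb1 was, and 14 of the 16 differed between letters, beside 28.1% of all genes. The 14 fibroblast markers summed to 28856, 27341, 25887 and 20350 CPM in TSP-4 plasmid libraries A to D, against 25199, 28105, 22687 and 19870 CPM in empty plasmid libraries A to D. They were lowest in D, as Tgfb2 and Ltbp4 were, and 11 of the 14 differed between letters, beside the same 28.1%. Markers of pericytes and smooth muscle, 8 of 10 tested, summed to 897 to 1699 CPM in TSP-4 plasmid libraries and 827 to 1680 CPM in empty plasmid libraries, with both maxima in library A. Most of this sum was Acta2, also listed below as a TGF-beta target gene. Acta2 averaged 1064 CPM in TSP-4 plasmid libraries and 1024 CPM in empty plasmid libraries. The next highest marker, Notch3, averaged 32.5 and 30.7 CPM. Of the 8 tested pericyte and smooth muscle markers, 3 differed between letters, beside the same 28.1%. Epicardial and mesothelial markers, 8 of 9 tested, summed to 627 to 1112 CPM in TSP-4 plasmid libraries and 569 to 1104 CPM in empty plasmid libraries, again highest in A. Of these 8, 6 differed between letters. The part of these markers, and of the greater depth of the A libraries, in the letter differences of the members was not tested.

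**Figure D5:**
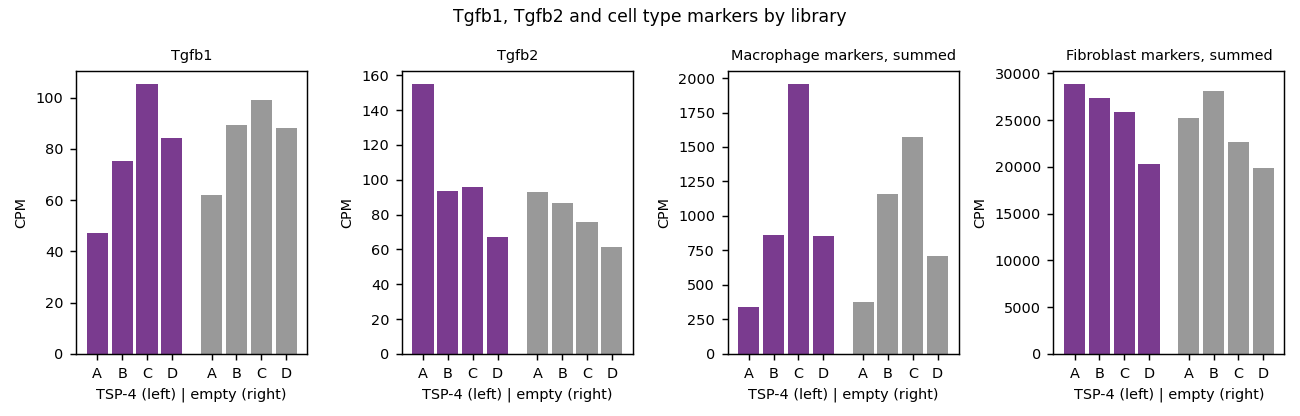
CPM of Tgfb1 and Tgfb2 and the summed CPM of 16 macrophage and 14 fibroblast markers in TSP-4 plasmid libraries A to D (left, purple) and empty plasmid libraries A to D (right, grey). Tgfb1 and the macrophage sum are lowest in A and highest in C in both groups, and Tgfb2 and the fibroblast sum are lowest in D.

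The genes most like a member over the 8 libraries were named by the smallest root mean square difference of centred log2 CPM among genes averaging 1 CPM or more. For Tgfb1 these were Gm31718 (0.07), Adamts14 (0.08) and Dusp6 (0.08), beside a spread of 0.36 of Tgfb1 itself. For Tgfb2 they were Adamts5 (0.10), Xkr4 (0.12) and Pappa (0.12), beside a spread of 0.38. For Tgfb3 they were Adgrb2 (0.04), Cd34 (0.06) and Unc119 (0.06), beside 0.23. For Tgfbr2 they were Erap1 (0.04), Gbp7 (0.05) and Lpar1 (0.05), beside 0.26, and for Tgfbr3 Sorl1 (0.08), Zbp1 (0.10) and Rsad2 (0.10), beside 0.40. For Ltbp2 they were Tcf19 (0.07), Timp1 (0.10) and Pcna (0.11), beside 0.28, and for Ltbp4 Zfp101 (0.11), Plxna3 (0.12) and Ccdc15 (0.13), beside 0.32. The nearest genes were Sardh for Tgfbr1, Ints8 for Ltbp1 and Amotl2 for Ltbp3.

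In 4 lists of other pathway genes, 0 were called higher and 0 lower between plasmids, and none had an unadjusted p under 0.05, beside 1.60% of all genes. Of 32 genes that activate, cleave or store latent TGF-beta, 30 were tested, 24 lay above 0 and the median log2 fold change was 0.05. Thbs1, a known activator of latent TGF-beta, stood at 1004 ± 133 FPKM in TSP-4 plasmid libraries, against 1000.2 ± 137 FPKM in empty plasmid libraries (SD, n = 4 per group). Fmod, which encodes the collagen-binding proteoglycan fibromodulin, stood at 62.0 ± 14.4 FPKM in TSP-4 plasmid libraries, against 49.5 ± 12.0 FPKM in empty plasmid libraries (log2 fold change 0.32, interval -0.20 to 0.84). Tgm2, a transglutaminase that cross-links the latent complex to matrix, stood at 21.6 ± 0.852 FPKM in TSP-4 plasmid libraries and 20.0 ± 1.23 FPKM in empty plasmid libraries. The integrin subunit gene Itgb3 stood at 4.09 ± 0.927 FPKM in TSP-4 plasmid libraries and 4.78 ± 0.584 FPKM in empty plasmid libraries. With the replicate block an unadjusted p under 0.05 was found for 11 of the 30, 4 of 15 co-receptors and receptor modulators, 4 of 17 SMAD genes and 5 of 24 target genes, beside 8.12% of all genes, and 0 of any list passed adjustment over all genes. Of the 11, Fmod had the smallest unadjusted p, 1.17e-05, which became 0.0576 after Benjamini-Hochberg adjustment over all genes with edgeR. Among the alternative fits described below, Fmod kept its sign and passed adjustment between plasmids in 3, but not in 19. In 17 of the fits Thbs4 was the only gene called.

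Of 17 co-receptors and receptor modulators, 15 were tested and 9 lay above 0 (median 0.01). Eng, the co-receptor endoglin, stood at 199 ± 7.49 FPKM in TSP-4 plasmid libraries and 193 ± 8.65 FPKM in empty plasmid libraries. Fkbp1a, whose protein keeps the type I receptor inactive, stood at 104 ± 5.46 FPKM in TSP-4 plasmid libraries and 110.0 ± 6.26 FPKM in empty plasmid libraries (SD, n = 4 per group). All 17 SMAD mediators and feedback genes were tested, and 7 lay above 0 (median -0.02). Smad3, a receptor-activated SMAD, stood at 26.2 ± 2.78 FPKM in TSP-4 plasmid libraries and 27.9 ± 1.65 FPKM in empty plasmid libraries. The ubiquitin ligase gene Smurf2 stood at 62.8 ± 13.7 FPKM in TSP-4 plasmid libraries and 72.2 ± 9.31 FPKM in empty plasmid libraries. Pmepa1, a feedback inhibitor, stood at 80.0 ± 9.35 FPKM in TSP-4 plasmid libraries and 87.6 ± 5.77 FPKM in empty plasmid libraries. All 24 target genes were tested, and 10 lay above 0 (median -0.01). The cell cycle inhibitor Cdkn2b stood at 89.3 ± 11.8 FPKM in TSP-4 plasmid libraries and 77.6 ± 3.79 FPKM in empty plasmid libraries, with an unadjusted p of 0.0528 that became 0.999968 after Benjamini-Hochberg adjustment with edgeR. Between letters, 23 of the 30 activation and storage genes, 6 of the 15 co-receptors, 9 of the 17 SMAD genes and 17 of the 24 target genes differed, beside 28.1% of all genes.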

How the data were processed

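RNA-seq was compared between 4 TSP-4 plasmid and 4 empty plasmid libraries. The deposited count table holds raw read counts per gene, and a second deposited table gives FPKM that the authors computed. For all genes with reads the FPKM equalled count over gene length and library total, times 1 constant per library (0.974 to 1.02). Per the submitters' processing notes the tools included HTSeq 0.6.1, TopHat2 2.0, Cufflinks 2.1.1 and CASAVA, and the builds mm10 and GRCm38.p6, with no roles stated. No source used here gives the aligner settings, annotation release or strand setting. Coordinates of 10 of 10 members equal those of GENCODE M21.

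Counts were tested with edgeR 4.0.16 in R 4.3.3 (TMM factors, expression filter at a minimum count of 10, robust quasi-likelihood fit, group as the single term, Benjamini-Hochberg at 0.05), and letters with group in the model. Alternatives used RLE factors, DESeq2 1.42.0, limma 3.58.1 voom, no filter, a replicate block and left-out libraries. The procedure was tested on simulated data. For the plasmid test these held no differences between letters, so they do not show what that test detects when letters differ. CPM are TMM-scaled, and centred log2 CPM used a prior count of 2, letter means a pseudocount of 0.5. The 95% intervals come from the fit and include the spread between libraries.

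Same-letter libraries deviated together from their group means (Pearson's r 0.508 to 0.651 across genes, which are not independent; other letters -0.570 to 0.323), with 8 of 8 closest to their own letter. The letters therefore pair the libraries by the data, not by the labels.

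The members, gene lists, letter test and naming rule (all members, Thbs4, and up to 3 genes of each list by smallest p and by FPKM where none passed) were chosen with earlier results of these data known. The text prints part of the named genes. Ccn2 was matched to the older symbol Ctgf through RefSeq.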

Additional observations from a re-analysis of the deposited data

Results flagged for a closer look

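Total counts of the TSP-4 plasmid group were flagged, because library A stood far from the other 3: it held 22530947 counts against at most 17681837, a gap of 0.897 of the group's range. Among 64 values examined (each named gene and the total counts, in each group of 4) this was the single one flagged, and chance alone flags about 1 in 20 such groups. The same library held the highest Tgfb2 and the lowest Tgfb1 of the 8.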

How the results depend on the processing

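With RLE factors, DESeq2, limma voom, no expression filter, the replicate block, and each library or letter left out, the plasmid comparison called 0 members, and between letters 8 to 10 members were called with libraries left out and 9 to 10 otherwise. All genes called between letters numbered 2716 with DESeq2, against 4134, and 2782 to 4253 with libraries left out. All genes called between plasmids numbered 2 with the replicate block and 10 with the block in DESeq2, against 1, and 1 to 5 with libraries left out. With the block no member changed direction or call. Fmod, which is not a member, passed adjustment between plasmids in 3 of the alternative fits and did not in 19. In 17 of these fits Thbs4 was the only gene called. The other 5 called more genes, and both block fits on all libraries were among them.

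The log2 fold changes of Tgfb2 and Tgfbr2 kept their sign in every fit. Others crossed 0 when a library or a whole letter was left out, and the cause was not tested: Tgfb1 ranged from -0.29 to 0.064, Tgfb3 -0.029 to 0.24, Tgfbr1 -0.10 to 0.088, Tgfbr3 -0.12 to 0.22, Ltbp1 -0.070 to 0.015, Ltbp2 -0.18 to 0.087, Ltbp3 -0.00013 to 0.092, Ltbp4 -0.21 to 0.15, Bgn -0.018 to 0.23, Cav1 -0.043 to 0.31, Ski -0.011 to 0.063, Timp1 -0.15 to 0.16 and Thbs1 -0.073 to 0.072. Thbs1, at -0.00, turned to 0.0045 with RLE factors, 0.0045 with DESeq2, 0.0014 with limma voom, 0.0011 without the filter, 0.00076 with the replicate block and 0.0053 with the block in DESeq2. A letter with 1 library left is assumed to vary like the others. Tgfbr3, at 262 to 458 counts, was the member with the fewest counts, with an SE of 0.28, or 0.10 with the replicate block.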
